A study of Arabidopsis thaliana with 8 samples.

Results

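Transcripts of 4 nuclear genes of chloroplast proteins were followed through all lines of the series: LHCB4.2 (AT3G08940) and LHCB4.3 (AT2G40100), which encode isoforms of a minor antenna protein of photosystem II, RCA (AT2G39730), which encodes Rubisco activase, and LYC (AT3G10230), the lycopene beta-cyclase of carotenoid synthesis. They were chosen by name, and each is read by 1 probe set that maps to that gene alone, so 4 probe sets of 4 genes are described out of 13356 genes named on the array. The data are 8 Affymetrix ATH1 arrays of rosette leaves from Arabidopsis thaliana, with 2 arrays for each of 4 lines. The flu tAPX plants carry the flu allele (SAIL_136_E05, a T-DNA insertion line) together with the thylakoid ascorbate peroxidase overexpressor (1 transgenic line, 14/2), the flu plants carry the flu allele alone, the tAPX plants carry the overexpressor in Col, and WT is Col. All plants were labelled as 3 weeks old, grown in continuous light, kept in the dark for 8 h and returned to light for 2 h. By these labels WT went through the same dark and light shift as the mutants. Some free-text descriptions name another accession or harvest time and were not followed. Each array holds RNA pooled over 3 of 6 experiments of at least 10 plants per line. The spread between 2 arrays is therefore a spread between pools, and is smaller than that between plants. Which promoter drives the transgene is not stated in the labels.

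In photosystem II, a ring of light-harvesting proteins passes energy to the reaction centre. The LHCB4 protein is a monomeric antenna that sits between the core and the outer trimers, and it takes part in assembling large supercomplexes and in getting rid of excess light energy. Arabidopsis has 3 genes for it, LHCB4.1, LHCB4.2 and LHCB4.3. Rubisco activase is an ATP-dependent protein that frees the active sites of Rubisco from inhibitory sugar phosphates. Lycopene beta-cyclase closes the rings that turn lycopene into beta-carotene, a pigment of the reaction centres that quenches singlet oxygen. FLU holds back chlorophyll synthesis in darkness, and plants without it accumulate protochlorophyllide in the dark, which gives singlet oxygen once the light returns. The extra peroxidase removes hydrogen peroxide at the thylakoid membrane.

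Of the 4 genes, 3 were called lower with the flu allele both without the transgene (flu against WT, where 12.5% of all tested probe sets were called and lower) and with it (flu tAPX against tAPX, 18.5%), and RCA was called in neither. LHCB4.2 and LYC had signals at 52.5% to 59.7% of their WT mean in the flu tAPX and flu lines. LHCB4.3 stood at 58.5% of its WT mean in flu and at 35.0% in flu tAPX. RCA was at 92.1% of its WT mean in flu tAPX and 93.2% in flu. The peroxidase transgene alone moved none of the 4 past the test.

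As a check of the labels, TAPX, the gene that the transgene overexpresses, had signals of 22043 to 23222 on the 4 flu tAPX and tAPX arrays, against 1656 to 3115 on the 4 flu and WT arrays. FLU is not analysed here. Replicate arrays of a line correlated across the tested probe sets at r = 0.938 for flu tAPX, 0.962 for flu, 0.981 for tAPX and 0.962 for WT, where probe sets are no independent replicates. The flu tAPX replicate 1 array gave the lowest of the 8 values for all 4 genes, and for 9 of the 13 photosynthesis and carotenoid genes read here. Its poly-A spike-in controls were also the highest, 0.61 above the mean of the arrays on the log2 scale, against 0.25 for flu tAPX replicate 2 and -0.29 to 0.04 for the other arrays. The deposited values are MAS5 signals, a linear brightness that MAS5 scales on each array to a common trimmed mean. A signal orders arrays for 1 probe set and does not order genes by abundance.

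LHCB4.2 had signals of 11573 and 13561 on the flu tAPX arrays, 13162 and 15420 on the flu arrays, 24070 and 23936 on the tAPX arrays and 22554 and 25302 on the WT arrays. All 4 arrays with the flu allele lay below all 4 arrays without it. The line means were 12567 ± 1405 in flu tAPX, 14291 ± 1596 in flu, 24003 ± 95.1 in tAPX and 23928 ± 1943 in WT (SD, n = 2 each). In ascending order the lines were flu tAPX, flu, WT and tAPX. Between flu tAPX and flu the replicates overlapped, and so they did between tAPX and WT. The only step in that order larger than the spread was the one between the lines with and without the flu allele.

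LHCB4.3 is the isoform whose transcript is usually the scarcest of the family in leaves. Relative to its WT mean, it gave a wider spread of line means than LHCB4.2 (35.0% to 113.9%, against 52.5% to 100.3%). Its signals were 1006 and 1627 on the flu tAPX arrays, 2079 and 2316 on the flu arrays, 4322 and 4233 on the tAPX arrays and 3466 and 4047 on the WT arrays. Here no replicate pair overlapped with that of another line, and the ascending order was flu tAPX, flu, WT and tAPX. The means were 1316 ± 439 in flu tAPX, 2198 ± 167 in flu, 4278 ± 62.9 in tAPX and 3756 ± 410 in WT (SD, n = 2 each). Neither the step between flu tAPX and flu nor that between tAPX and WT passed the test given below.

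RCA had signals of 24891 and 31222 on the flu tAPX arrays, 27196 and 29616 on the flu arrays, 28989 and 30467 on the tAPX arrays and 31736 and 29217 on the WT arrays. All lines overlapped with at least 1 other line, and flu tAPX spanned nearly the whole range. The means were 28056 ± 4476 in flu tAPX, 28406 ± 1711 in flu, 29728 ± 1045 in tAPX and 30477 ± 1782 in WT (SD, n = 2 each). The probe set is among the brightest, with 5 to 12 probe sets brighter on an array, and the brightest signal of an array lay between 34111 and 44172. Whether such bright probe sets still respond in proportion to the RNA was not tested.

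LYC had signals of 1264 and 1436 on the flu tAPX arrays, 1304 and 1460 on the flu arrays, 2620 and 2321 on the tAPX arrays and 2222 and 2572 on the WT arrays. As for LHCB4.2, the values fell into a lower and an upper set of 4 arrays each, with the flu allele and without it. Within each set the lines overlapped. The means were 1350.0 ± 122 in flu tAPX, 1382 ± 111 in flu, 2471 ± 212 in tAPX and 2397 ± 247 in WT (SD, n = 2 each).

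**Figure D1:**
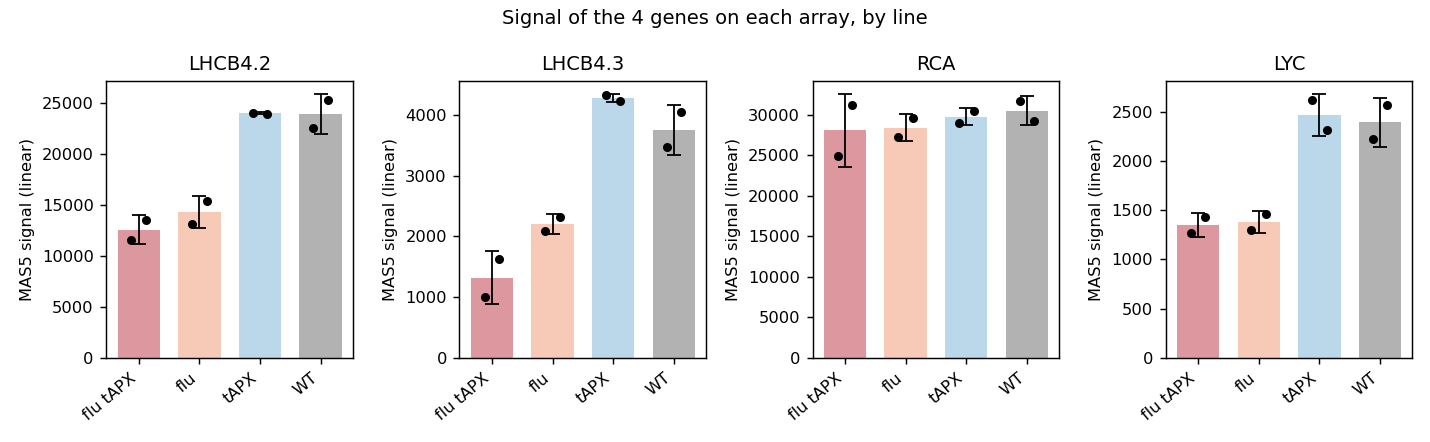
Signal (linear MAS5 scale, y axis from 0) of LHCB4.2, LHCB4.3, RCA and LYC in each line (x axis). Points are the 2 arrays of a line, bars the mean and error bars the SD. LHCB4.2, LHCB4.3 and LYC are lower on the 4 arrays with the flu allele than on the other 4, while for RCA the lines overlap.

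To ask how far the flu allele changes these genes in plants without the transgene, flu was compared with WT in a linear model of log2(signal + 16) over all 14947 tested probe sets with limma, adjusting p-values by the Benjamini-Hochberg method at a threshold of 0.05. LYC was lower in flu by 1.72-fold (log2 -0.79 ± 0.17 SE, adjusted p = 0.0079), LHCB4.3 by 1.70-fold (-0.77 ± 0.22, adjusted p = 0.0295) and LHCB4.2 by 1.68-fold (-0.75 ± 0.15, adjusted p = 0.00626). These 3 of 4 fell, beside 23.9% of all tested probe sets that were called and 12.5% that were called and lower. RCA differed by -0.10 ± 0.15 (adjusted p = 0.665), with a 95% interval of -0.44 to 0.24. The median change of all tested probe sets was -0.20, and relative to it LYC was at -0.58, LHCB4.3 at -0.56, LHCB4.2 at -0.54 and RCA at 0.10. Of all tested probe sets, 11.7% changed to lower values than LYC, 12.5% than LHCB4.3, 13.2% than LHCB4.2 and 57.5% than RCA, so the 3 that fell lay in the lower part of a broad distribution. The genes had been picked with such results known, and their count is no independent evidence that they stand apart.

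The calls of flu against WT rest on few arrays. Without WT replicate 2 none of the 3 passed (log2 -0.66 for LHCB4.2, -0.66 for LHCB4.3 and -0.68 for LYC), nor did any without flu replicate 1 (-0.63, -0.69 and -0.71) or with arrays scaled on their poly-A controls (-0.70, -0.72 and -0.74). LHCB4.3 also missed the threshold without WT replicate 1 (-0.88), flu replicate 2 (-0.84) or either tAPX array (-0.77), and with variances that follow no trend (-0.77).

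The same allele was then compared in plants with extra peroxidase, flu tAPX against tAPX, on the other 4 arrays, the estimate of the spread being shared. LHCB4.3 was lower by 3.31-fold (log2 -1.73 ± 0.22, adjusted p = 0.000225), LHCB4.2 by 1.91-fold (-0.94 ± 0.15, adjusted p = 0.0011) and LYC by 1.82-fold (-0.86 ± 0.17, adjusted p = 0.00314). Again 3 of 4 fell, beside 33.5% of tested probe sets called and 18.5% called and lower, and all 3 still passed when any 1 of the 8 arrays was left out. RCA was at -0.09 ± 0.15 (adjusted p = 0.677), with a 95% interval of -0.43 to 0.25. Quantile normalization turned RCA to 0.10, and poly-A scaling gave it a call at -0.77 (adjusted p = 0.0153), where the median of all tested probe sets was -0.79 instead of -0.16. Only 1.90% of tested probe sets changed to lower values than LHCB4.3, compared with 12.9% for LHCB4.2, 15.0% for LYC and 54.1% for RCA.

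**Figure D2:**
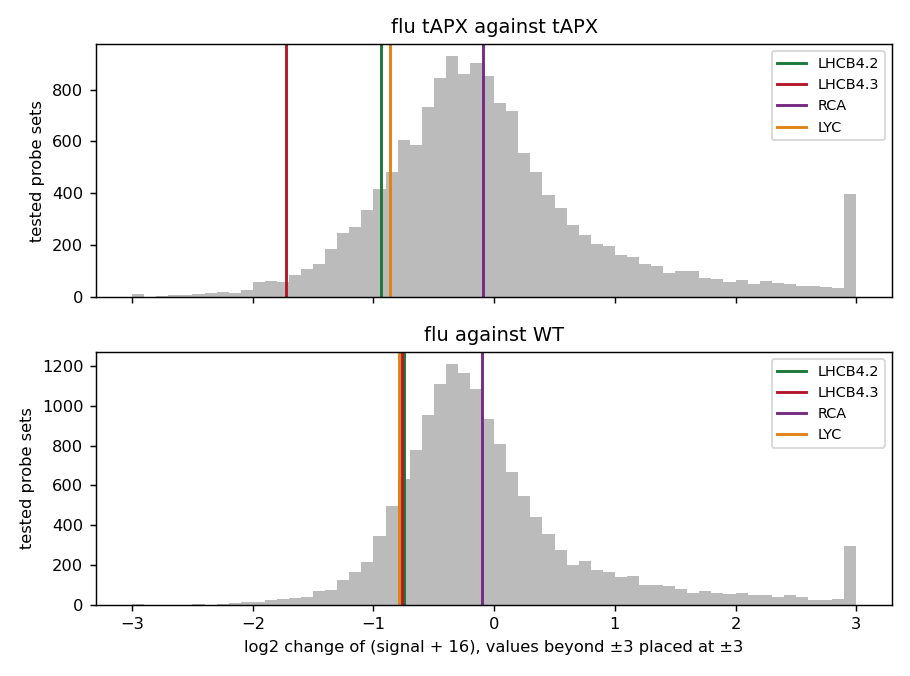
Histograms of the log2 change of all 14947 tested probe sets (x axis, values beyond the axis limits placed at them; y axis, number of probe sets) in flu tAPX against tAPX and flu against WT, with the 4 genes as vertical lines. RCA lies near the middle of both distributions, and LHCB4.3 is at -1.73 in flu tAPX against tAPX and at -0.77 in flu against WT.

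Averaged over both backgrounds, LHCB4.3 was 2.37-fold lower with the flu allele (log2 -1.25 ± 0.15, adjusted p = 0.000123), LHCB4.2 1.79-fold (-0.84 ± 0.11, adjusted p = 0.000156) and LYC 1.77-fold (-0.83 ± 0.12, adjusted p = 0.000339). These 3 calls held in every alternative and with each array left out, though 44.3% of all tested probe sets were called in this average and 27.2% were called and lower. RCA was at -0.10 ± 0.11 (adjusted p = 0.489; 95% interval -0.34 to 0.14), and quantile normalization turned this to 0.09.

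Whether the fall differs between plants with and without the transgene was tested as the interaction. LHCB4.3 had the widest gap, at log2 -0.96 ± 0.31, with an unadjusted p of 0.011 and an adjusted p of 0.719, so the stronger fall in flu tAPX did not pass in limma over all probe sets. Its 95% interval was -1.65 to -0.27. LHCB4.2 differed by -0.19 ± 0.22 (interval -0.67 to 0.29), LYC by -0.08 ± 0.24 (-0.61 to 0.45) and RCA by 0.01 ± 0.22 (-0.47 to 0.49), with adjusted p-values of 0.863, 0.957 and 0.992. No probe set at all was called for the interaction, 0% of those tested, while 1031 had an unadjusted p under 0.05. With poly-A scaling LHCB4.3 did pass (log2 -1.67, adjusted p = 0.0409), under which the median interaction of all tested probe sets was -0.62. Without flu tAPX replicate 1 its interaction was -0.62, and without replicate 2 it was -1.30.

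The transgene itself was compared in both backgrounds. In flu tAPX against flu none of the 4 genes was called, where 0.00669% of tested probe sets was called, a single one. LHCB4.3 was at log2 -0.77 ± 0.22 (unadjusted p = 0.00546, adjusted p = 0.870), LHCB4.2 at -0.19 ± 0.15, LYC at -0.03 ± 0.17 and RCA at -0.03 ± 0.15. Only 2.46% of probe sets had lower values than LHCB4.3 in this comparison. In tAPX against WT, LHCB4.3 was at 0.19 ± 0.22, LYC at 0.04 ± 0.17, LHCB4.2 at 0.01 ± 0.15 and RCA at -0.04 ± 0.15, none of them called, with again 0.00669% called. The intervals were -0.30 to 0.68 for LHCB4.3, -0.33 to 0.42 for LYC, -0.33 to 0.35 for LHCB4.2 and -0.37 to 0.30 for RCA, which bound the change that could have gone unseen. Averaged over both backgrounds the transgene called none of the 4 (0.00669% called), LHCB4.3 being at -0.29 ± 0.15 (unadjusted p = 0.0897).

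The genes were also set against each other within an array, as differences of log2(signal + 16), which a factor common to a whole array leaves nearly the same and quantile normalization does not. Ratios were taken for 8 pairs, the 6 among the 4 genes and the antenna isoforms LHCB4.2 and LHCB4.3 each over LHCB4.1. They were chosen after the values above had been seen and are given as descriptions with no test, for the 4 arrays with the flu allele (flu tAPX and flu) against the other 4 (tAPX and WT). The log2 ratio of LHCB4.2 to RCA was -1.20 to -0.94 with the flu allele, against -0.49 to -0.21 without it, a difference of means of -0.74. LHCB4.3 over RCA differed by -1.15 and RCA over LYC by 0.73, also without overlap. With quantile normalization these 3 differences were -0.83, -1.34 and 0.94. How far the brightness of the RCA probe set bears on them was not tested.

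For LHCB4.2 over LYC the mean log2 ratio was 3.28 on the arrays with the flu allele and 3.29 on the others, a difference of -0.02. With any 1 array left out the difference stayed within -0.05 to 0.02, while quantile normalization turned it to 0.11, and in flu against WT gave 0.20 in place of 0.04. The difference for LHCB4.2 over LHCB4.3 was 0.02 in flu against WT, 0.79 in flu tAPX against tAPX and 0.41 over all arrays. LHCB4.3 over LYC differed by 0.02 in flu against WT, -0.86 in flu tAPX against tAPX and -0.42 over all arrays. For LHCB4.2 over LHCB4.3 and for LHCB4.3 over LYC, the arrays with and without the flu allele overlapped.

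**Figure D3:**
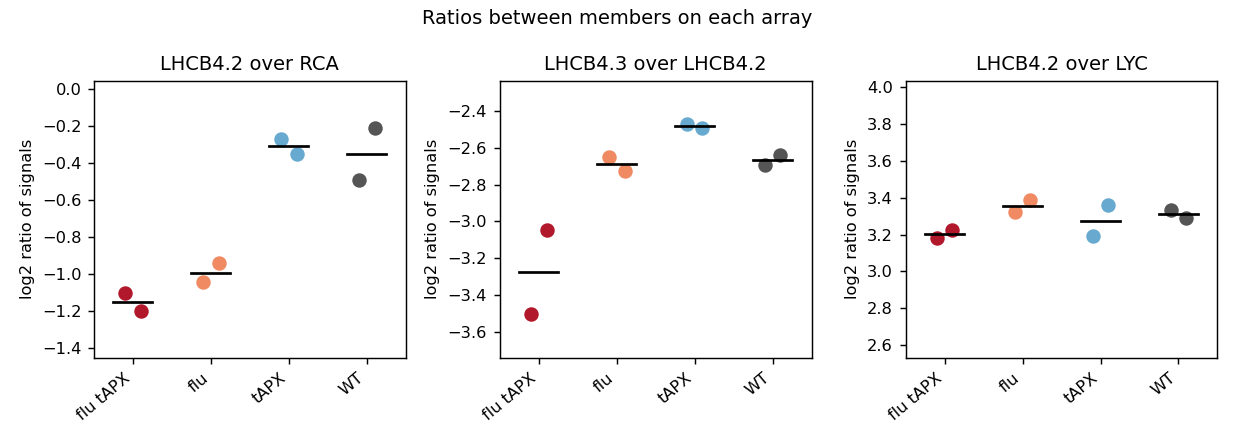
Log2 ratio of the signals (each + 16) of LHCB4.2 over RCA, LHCB4.3 over LHCB4.2 and LHCB4.2 over LYC on each array (y axis, the same span in each panel), by line (x axis). Points are arrays and lines the mean of 2. The arrays with the flu allele lie at -1.20 to -0.94 for LHCB4.2 over RCA, against -0.49 to -0.21 for tAPX and WT, while LHCB4.2 over LYC differs by -0.02.

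LHCB4.1, the remaining gene for this antenna protein, had signals of 13780 and 19345 in flu tAPX, 16535 and 21157 in flu, 24178 and 26184 in tAPX and 24416 and 26498 in WT. All 4 arrays with the flu allele were again below the other 4. In flu against WT it was at log2 -0.44 ± 0.19 and was not called (adjusted p = 0.119). With the replicate number as a block in limma it was called there (adjusted p = 0.0465). In flu tAPX against tAPX it was lower, at -0.62 ± 0.19 (adjusted p = 0.0294). That call was lost without tAPX replicate 1 (-0.68), tAPX replicate 2 (-0.57) or flu tAPX replicate 1 (-0.38), with quantile normalization (-0.48), and with no filter, untrended variances or only the lines compared (-0.62 each). The log2 ratio to LHCB4.1 differed between arrays with and without the flu allele by -0.31 for LHCB4.2 and by -0.71 for LHCB4.3, both without overlap. The isoforms are similar in sequence, and whether their probe sets read each other's transcripts was not tested.

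Of 90 genes in lists of the antenna, the nuclear photosystem and electron transport subunits, the Calvin cycle and carotenoid synthesis, 13 have a probe set of their own in the annotation used, 9 besides the 4 described. In flu against WT 3 of these 9 were called lower, none was called higher and 6 were not called. Of all tested probe sets, 12.5% were called and lower. The median log2 change of the 9 was -0.44, beside -0.20 for all tested probe sets. The 3 were the Calvin cycle enzymes SBPASE, which releases phosphate from sedoheptulose bisphosphate (-0.70 ± 0.18), and PRK, the kinase that makes the acceptor of carbon dioxide (-0.62 ± 0.19), and the photosystem II subunit PSBY (-0.56 ± 0.16), with adjusted p-values of 0.0179, 0.0402 and 0.0293. None of the 3 was called with quantile normalization, poly-A scaling, variances without a trend or no filter, nor without either WT array or flu replicate 1. Without flu replicate 2 or either tAPX array only SBPASE was, and without either flu tAPX array 6 of the 9 were.

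In flu tAPX against tAPX all 9 were lower (18.5% of all tested probe sets were called and lower), with a median of -0.79 beside -0.16 for all tested probe sets. PSBY had signals of 7697 and 7024 in flu tAPX against 17109 and 19302 in tAPX (-1.30 ± 0.16, adjusted p = 0.000168). SBPASE had 7627 and 10528 against 16762 and 16445 (-0.89 ± 0.18, adjusted p = 0.0036), and PRK 9985 and 14193 against 20834 and 20482 (-0.79 ± 0.19, adjusted p = 0.0101). The other 5 besides LHCB4.1 were the carotenoid isomerase Z-ISO (-0.85 ± 0.28), the photosystem II subunit PSBW (-0.79 ± 0.16), the photosystem I subunits PSAN (-0.74 ± 0.15) and PSAE-1 (-0.70 ± 0.19), and ATPC1, the gamma subunit of the chloroplast ATP synthase (-0.54 ± 0.16). The count was 5 of 9 without tAPX replicate 1, 4 without tAPX replicate 2, 6 without flu tAPX replicate 1, 5 with no filter, with untrended variances or with only the lines compared, and 6 with quantile normalization. In the interaction none of the 9 was called, and in tAPX against WT and flu tAPX against flu none either.

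**Figure D4:**
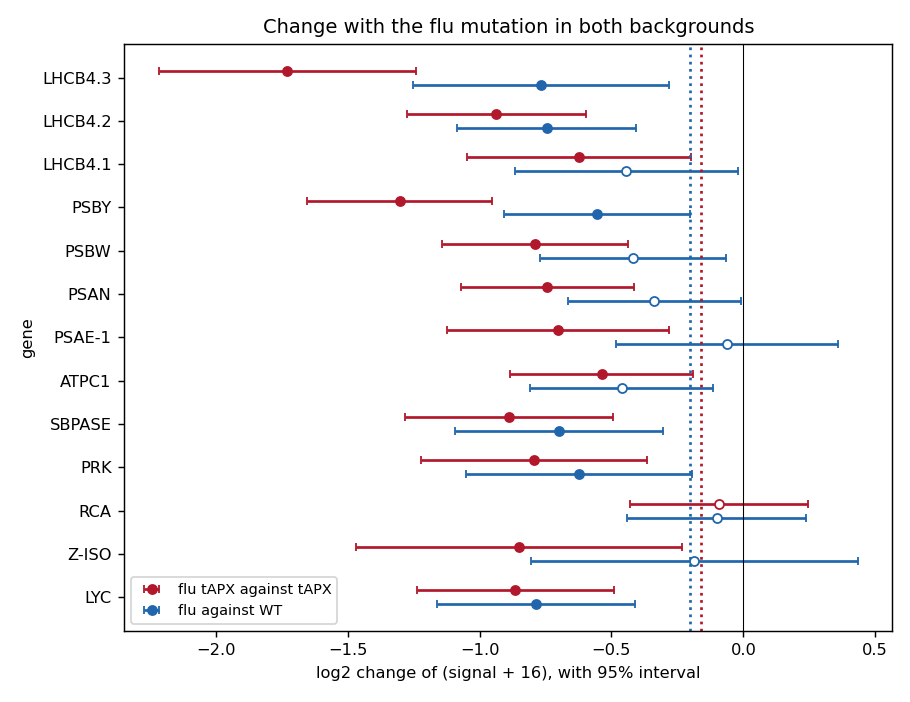
Log2 change (x axis) with its 95% interval for each of 13 genes (y axis), in flu tAPX against tAPX (red) and in flu against WT (blue). Filled points passed the test, open points did not, and dotted lines give the median of all tested probe sets in each comparison. RCA alone of the 13 was called in neither. In flu tAPX against tAPX 12 were called lower, beside 18.5% of all tested probe sets. In flu against WT 6 were called lower, beside 12.5%.

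Of the Calvin cycle genes measured, PRK and SBPASE had all their flu tAPX and flu signals below all their tAPX and WT signals, which RCA had not. In the carotenoid list, Z-ISO overlapped between lines more than LYC, with 393 and 645 in flu tAPX, 628 and 746 in flu, 820 and 1037 in tAPX and 965 and 631 in WT. Its average change with the flu allele was -0.52 ± 0.20 and was not called (adjusted p = 0.0546).

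Rosettes also hold epidermis, guard cells, trichomes and vascular tissue, and in such bulk samples fewer cells of a type and less RNA per cell cannot be told apart. Of 17 marker genes of these types 3 have a probe set of their own in the annotation used, and no phloem gene among 3 does. Whether probe sets with no gene or several genes in that annotation read the other markers was not tested. TRY, a regulator of trichome spacing and the 1 of 6 epidermis and trichome genes that was read, had 105 and 172 in flu tAPX, 135 and 156 in flu, 334 and 293 in tAPX and 321 and 218 in WT. It was lower in flu tAPX against tAPX (log2 -1.13 ± 0.29, adjusted p = 0.0142) and was not called in flu against WT (-0.80 ± 0.29, adjusted p = 0.0731). Of 8 guard cell genes 2 were read, the stomatal regulator FMA with 238 to 380 over the flu tAPX and flu arrays and 254 to 264 over the tAPX and WT arrays, and AT1G22690 with 494 to 1840 and 886 to 1768. Neither was called in flu tAPX against tAPX or in flu against WT. The part of other cell types in the results above was not tested.

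Finally, each gene was compared with the 8139 other tested probe sets that have 1 named gene, by the root mean square difference of log2 values over the 8 arrays after each was centred on its own mean. This is a description of likeness over arrays that share their scaling, with no test. LYC and LHCB4.2 were close to each other at 0.073, LHCB4.2 being the third nearest to LYC and LYC the eighth nearest to LHCB4.2, where the median over all probe sets was 0.46 to 0.47. The nearest to LHCB4.2 were AT1G15730 (0.051), AT5G37360 (0.055), ACLB-1, a subunit of ATP-citrate lyase (0.060), AT5G27290 (0.062) and AT3G02690 (0.065). For LYC they were AT5G37360 (0.072), AT5G38520 (0.072), LHCB4.2, AT4G14360 (0.075) and AT2G26730 (0.076), so that AT5G37360 was on both lists.

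The median over all probe sets was 0.69 for LHCB4.3 and 0.36 for RCA, so distances are not directly comparable between genes. LHCB4.3 had no neighbour as near as those of LHCB4.2 and LYC. The closest was UGT78D1, a flavonol rhamnosyltransferase, at 0.141, with signals of 305 and 536 in flu tAPX, 732 and 573 in flu, 1380 and 1428 in tAPX and 1144 and 1261 in WT. Next came AT5G44410 (0.156), GT2, a trihelix transcription factor (0.157), AT5G08520 (0.161) and AT4G00750 (0.173), while LHCB4.2 was at place 206 (0.319). The 5 neighbours of RCA, among them AT1G48970 (0.044), AT4G13360 (0.064), AT1G66900 (0.066), the manganese transporter MTP11 (0.071) and AT2G23070 (0.071), were called in neither flu against WT nor flu tAPX against tAPX, which their likeness to RCA implies.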

How the data were processed

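RNA of rosette leaves was read on 8 ATH1 arrays. The deposited values are MAS5 signals, a linear intensity per probe set; MAS5 is named in the submitters' processing notes, with no version. The middle 96% of signals averaged 500.0 on each array, and array medians lay between 153 and 166. Lines came from the sample titles; some free-text descriptions name another accession or harvest time.

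Values were turned into log2(signal + 16), which understates changes of dim probe sets. Of 22810 probe sets, 64 controls were left out and those above the 40th percentile of an array on at least 2 arrays were kept (14947). All arrays entered 1 limma model (limma 3.58.1, R 4.3.3; 4 residual and 5.94 median prior degrees of freedom, variances with a trend), checked on simulated data. P-values are two-sided and adjusted over all tested probe sets. The number of arrays limits the precision. Gene names came from the platform annotation, updated through gene identifiers to RefSeq (TAIR10.1): 13513 probe sets have 1 gene, 503 several and 8794 none. No label names the genome build of the array, and coordinates were left out; gene sequences were not used here.

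Named were the 4 genes, list genes with a probe set, and the 5 nearest neighbours of each. Genes, lists and tests were chosen with earlier results of these data known; the ratios between genes were added after values were seen and carry no test. Alternatives were other pseudocounts (1 and 64), filters (none and the 60th percentile), variance models, scalings, the replicate block, fits of only the lines compared, and leaving out each array.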

Additional observations from a re-analysis of the deposited data

How the results depend on the processing

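With arrays scaled on 24 poly-A control probe sets, 2335 probe sets were called in flu against WT (3570 as deposited; 65.7% higher against 47.6%), 8850 in flu tAPX against tAPX (5014 as deposited; 14.3% higher against 44.7%), 3 in tAPX against WT, 16 in flu tAPX against flu and 514 in the interaction. Of the 4 genes, 0 were then called in flu against WT and 1 in the interaction, and values turned for RCA in tAPX against WT (0.14) and in the interaction (-0.71) and for LYC in the mean tAPX effect (-0.18). Quantile normalization turned RCA in flu against WT (0.085), flu tAPX against tAPX (0.097), flu tAPX against flu (0.0042) and the mean flu response (0.091), PSAE-1 in flu against WT (0.13) and LHCB4.2 in tAPX against WT (-0.028). Centring arrays on their median turned RCA in tAPX against WT (0.0067) and in the interaction (-0.037). All values that turned were uncalled. Leaving out 1 array gave 1852 (without WT replicate 2) to 4663 probe sets called in flu against WT, with 0 to 3 of the 4 genes, 2825 (without tAPX replicate 2) to 5364 in flu tAPX against tAPX, 1 to 72 in flu tAPX against flu and 0 to 185 in the interaction, the highest of both without flu tAPX replicate 1. Signs that turned when 1 array was left out were those of RCA in flu tAPX against tAPX (-0.26 to 0.071), tAPX against WT (-0.095 to 0.025), flu tAPX against flu (-0.19 to 0.14), the interaction (-0.15 to 0.17) and the mean tAPX effect (-0.11 to 0.051), of LYC in tAPX against WT (-0.060 to 0.15), flu tAPX against flu (-0.12 to 0.057), the interaction (-0.18 to 0.026) and the mean tAPX effect (-0.047 to 0.058), of LHCB4.2 in tAPX against WT (-0.076 to 0.090) and of Z-ISO in flu against WT (-0.49 to 0.11). The labels do not pair the arrays of different lines, and deviations of same-numbered arrays correlated at -0.08 to 0.35. With the replicate block, 3963 probe sets were called in flu against WT, 5521 in flu tAPX against tAPX and 2 in tAPX against WT (1 without it), and the calls of the 4 genes were as without it. The causes were not tested.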
